A study of Mus musculus with 4 samples.

Results

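Accessible chromatin was examined at 10 genes of the bone morphogenetic protein (BMP) pathway in posterior forelimb buds of the mouse. The genes were the ligands Bmp2, Bmp4 and Bmp7, the receptors Bmpr1a, Bmpr1b and Bmpr2, the effectors Smad1 and Smad5, and the target genes Id1 and Id3. Members were the peaks that overlapped the body of one of these genes or the 50 kb on either side of it (GENCODE M21, mm10). Overlapping peaks of the 4 libraries (1 bp or more) were joined into regions, and 90 of 44692 regions lay in the 10 windows. The genes were selected with the calls in these lists known, and the intronic regions of Bmpr1b called in Shh-/- were part of the reason, so the calls at the members are a description with no test.

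ATAC-seq marks open chromatin through insertion of sequencing adapters by the Tn5 transposase. The study compared 2 libraries from wild-type (WT) embryos with 2 libraries from Shh-/- embryos to ask how chromatin opens with and without Sonic hedgehog (SHH). All embryos were Swiss Webster mice at E10.5 with 35 somites, and each library came from a pair of posterior forelimb buds of a single embryo. Libraries are called rep1 and rep2 of each genotype, after their titles. The Shh-/- embryos carry the Shh tm1amc null allele in every cell and lack the SHH ligand, while the WT controls carry no mutant allele that the labels name.

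BMP ligands are secreted dimers that bind a complex of type I and type II receptor kinases. The activated type I receptor phosphorylates Smad1 and Smad5, which enter the nucleus with Smad4 and bind DNA, and Id1 and Id3 are among the genes they turn on. In the limb bud BMP signaling acts in patterning, in cell death and in the formation of cartilage, and Bmp2 is made in the posterior mesenchyme downstream of SHH.

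The lists held 39080 peaks in WT rep1 and 11973 in WT rep2, 5589 in Shh-/- rep1 and 18459 in Shh-/- rep2. A list holds no read counts, so depth is unknown from these files, and the absence of a peak is a missing call and no measure of closed chromatin. Each peak has a score that orders it within its own list only, and values below are ranks in that order, with rank 1 the highest score. Promoters of limb mesenchyme markers were called for 6 of 6 genes in WT rep1, for 2 in WT rep2, for 2 in Shh-/- rep1 and for 3 in Shh-/- rep2. Prrx1 was called in all 4 libraries, while the promoters of Hand2, Hoxd13 and Tbx5 were called in WT rep1 alone. Of the 13 markers of ectoderm, endothelium, blood and muscle progenitors, 9 had a promoter call in no library, among them Krt5, Cdh5, Hba-a1 and Myod1. The hindlimb markers Pitx1 and Tbx4 had a promoter peak in WT rep1, and Tbx4 also in Shh-/- rep2. The part of other cells or tissues in the calls below was not tested.

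The windows of the 10 genes held 78 peaks in WT rep1, 23 in WT rep2, 14 in Shh-/- rep1 and 43 in Shh-/- rep2. The mean was 50.5 ± 38.9 peaks in WT and 28.5 ± 20.5 in Shh-/- (SD, n = 2), and the difference of 22 peaks was smaller than the SD in WT. The libraries had the same order by list length, and the windows held 0.200% and 0.192% of the WT lists and 0.250% and 0.233% of the Shh-/- lists. The mean share was 0.196 ± 0.0053% in WT and 0.242 ± 0.0124% in Shh-/- (SD, n = 2). The windows were selected with their calls known, those of Bmpr1b in Shh-/- included, so nothing is read from the direction of either difference. Without WT rep1 the difference in peak number turned to −5.5 peaks (WT minus Shh-/-), and it was 7.5 without Shh-/- rep1, 36.5 without Shh-/- rep2 and 49.5 without WT rep2.

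**Figure D1:**
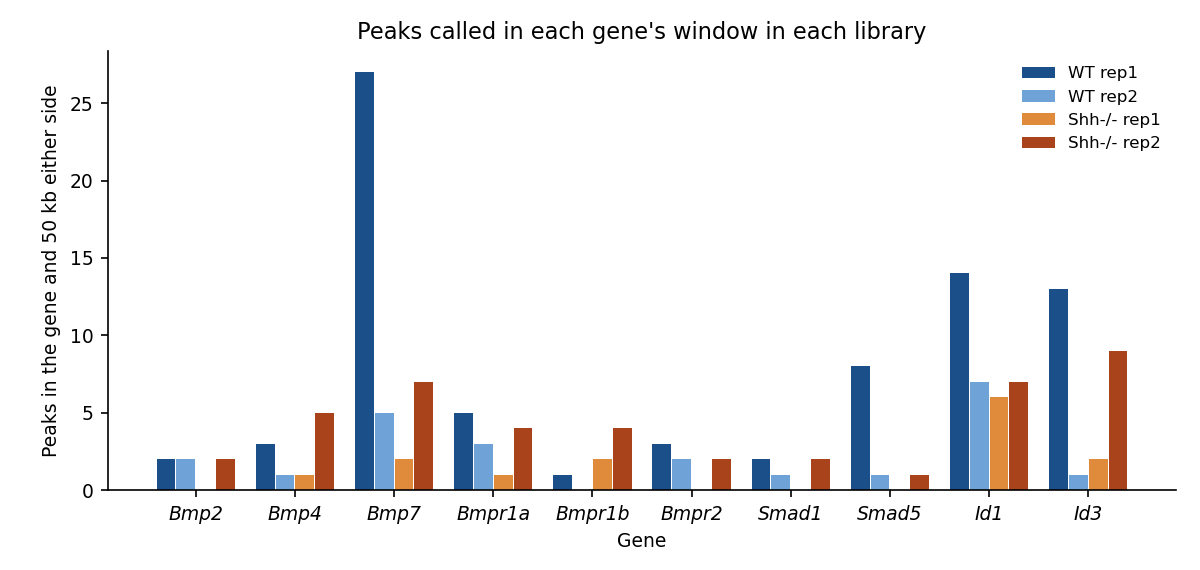
Number of peaks (vertical axis) called in the body of each gene and 50 kb either side, for each of the 4 libraries (1 bar per library, n = 1 each, no error). Bmp7 has 27 peaks in WT rep1 and 2 to 7 in the other libraries, and Bmpr1b is the gene with 2 and 4 peaks in the Shh-/- libraries against 1 and 0 in the WT libraries.

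The genes differed in how many regions surrounded them. Bmp7 had 32 regions, or 18.6 per 100 kb of window, Id1 had 15 (14.8 per 100 kb) and Id3 had 12 (11.7 per 100 kb). These 3 densities were above the third quartile of 6.43 per 100 kb over all 21938 protein-coding genes, whose median was 2.35. WT rep1 alone called 20 of the 32 regions of Bmp7, 6 of the 15 of Id1 and 3 of the 12 of Id3. Over all regions this share was 51.6%. Smad5 had 8 regions and Bmp4 and Bmpr1a had 6 each. Bmpr1b, whose body spans 332 kb, had 4 regions (0.925 per 100 kb), Bmpr2 had 3, and Bmp2 and Smad1 had 2 each. Of the 90 regions, 13 were promoter regions (from 2 kb before to 1 kb after a start site of the gene), 17 lay in introns, 4 in exons, 9 at the promoter of another protein-coding gene and 47 elsewhere in the flanks. The outermost region inside the 50 kb limit lay 49.1 kb from the body of Id1, and the nearest one just outside lay 50.7 kb from the body of Bmp7, at chr2:172817106-172817340.

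Calls were shared unevenly among the libraries. In WT rep1 alone 40 of the 90 regions were called (44.4%, against 51.6% of all 44692 regions), and 13 were called in WT rep1 and Shh-/- rep2 only (14.4%, against 4931 of all 44692 regions). A further 10 regions were called in every library but Shh-/- rep1 (11.1%, against 11.3% of all regions). All 4 libraries called 6 of the 90 (6.67%, against 7.97% of all regions). WT-specific regions, called in both WT libraries and in neither Shh-/- library, numbered 3 (3.33%, against 2.09% of all regions). Shh-specific regions, called in both Shh-/- libraries and in neither WT library, numbered 2 (2.22%, against 0.396% of all regions), and both lay in Bmpr1b. The count of 2 became 10 without Shh-/- rep1, 6 without WT rep1 and 4 without Shh-/- rep2, where the other library of that genotype decides alone. The WT-specific count of 3 became 43 without WT rep2, 13 without Shh-/- rep2 and 6 without WT rep1. The count of 6 in all libraries became 16 without Shh-/- rep1 and 10 without WT rep2.

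Promoters were called for all 10 genes in WT rep1 (against 60.4% of protein-coding genes) and in Shh-/- rep2 (against 51.3%). WT rep2 called 8 of the 10 (against 39.2% of protein-coding genes), and Shh-/- rep1 called 2 (against 17.3%). Id1 and Id3 were the 2 genes with a promoter call in all 4 libraries (against 16.1% of protein-coding genes). Bmp2, Bmp4, Bmp7, Bmpr1a, Bmpr2 and Smad5 were called in the 3 libraries other than Shh-/- rep1, a pattern of 21.1% of protein-coding genes. Bmpr1b and Smad1 were called in WT rep1 and Shh-/- rep2 only. Without Shh-/- rep1, 8 of the 10 promoters were called in every remaining library, against 37.2% of protein-coding genes. The 10 regions missing from Shh-/- rep1 alone had a median GC content of 71.3% around the summit (range 60.7 to 79.3%), and the 6 regions called in all 4 libraries had 62.0% (58.7 to 71.0%). The part of GC content in the calls was not tested.

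**Figure D2:**
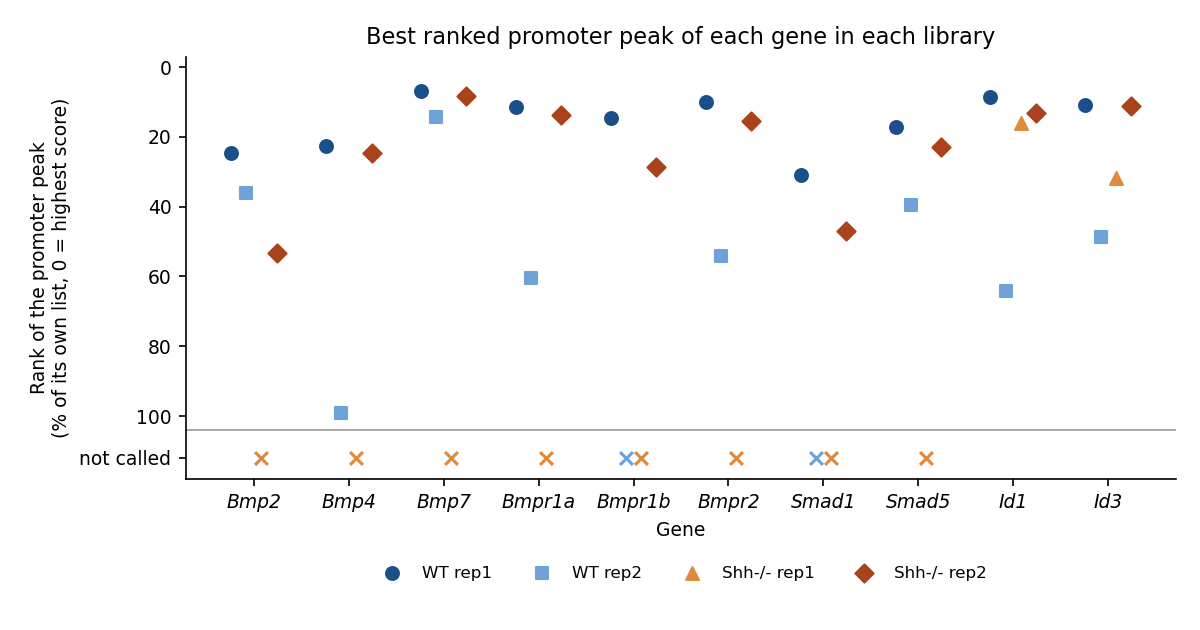
Rank of the best promoter peak of each gene within its own list, as a percent of the list (vertical axis, 0 at the top is the highest score), for 4 libraries (1 symbol each). Crosses mark promoters that were not called. The crosses belong to Shh-/- rep1 at 8 genes and to WT rep2 at Bmpr1b and Smad1, and Bmp4 sits at 99.2% in WT rep2.

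Among the ligands, Bmp2 (chr2:133552159-133562885) had a promoter region at chr2:133551986-133553800. Its peak ranked 9594 in WT rep1, 4316 in WT rep2 and 9811 in Shh-/- rep2. As a share of the list these ranks were 24.5%, 36% and 53.2%, so the promoter stood lowest in the Shh-/- library that called it. The other region of Bmp2, at chr2:133554406-133554927, overlapped an exon 2.34 kb downstream of the start site and ranked 15407, 5692 and 7857 in the same libraries. Its list shares of 39.4%, 47.5% and 42.6% put Shh-/- rep2 between the WT lists. No region was found in the flanks of Bmp2, and the next ones lay 67.9 kb and 241 kb from its body.

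Bmp4 (chr14:46383520-46390669) encodes a ligand with roles from early mesoderm to the limb. Its promoter region at chr14:46390105-46390963 ranked 8827 in WT rep1 and 4519 in Shh-/- rep2. In WT rep2 the promoter peak ranked 11876 of 11973, at the end of that list with the lowest score of 14. An exonic region 3.18 kb into the gene, at chr14:46386886-46387922, was the one Bmp4 region called in Shh-/- rep1, at rank 3421. It ranked 10698 in WT rep1 and 10333 in Shh-/- rep2, and it was missing from WT rep2. Shh-/- rep2 alone called 3 other regions at Bmp4, at 1.81, 4.73 and 10.1 kb from the start site. The 250 bases before the RefSeq start site of Bmp4 (GRCm38.p6, chr14:46390670-46390919, minus strand) had a GC content of 63.2% and are shown as the sequence upstream of that site. The promoter peak of Shh-/- rep2 covers all of these bases, that of WT rep1 covers a part next to the start site, and that of WT rep2 lies inside the gene and covers none.
Bmp4 promoter: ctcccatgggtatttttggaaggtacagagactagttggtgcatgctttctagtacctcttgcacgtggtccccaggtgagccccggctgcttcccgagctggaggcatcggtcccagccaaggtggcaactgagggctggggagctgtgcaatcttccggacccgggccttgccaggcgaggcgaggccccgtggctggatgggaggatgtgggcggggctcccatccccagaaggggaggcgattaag

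Bmp7 (chr2:172868012-172940321) was the ligand with the most regions and held 2 of the 3 WT-specific ones. Its promoter region at chr2:172939447-172940939 ranked 2705 in WT rep1, 1722 in WT rep2 and 1531 in Shh-/- rep2. This was the best ranked promoter of the 10 genes in all 3 of these lists, at 6.92%, 14.4% and 8.29% of the list. Its 13 intronic regions ran from 1.38 to 58.7 kb after the start site. The intronic region at chr2:172933681-172934337, 6.34 kb from the start site, ranked 11806 in WT rep1, 1755 in Shh-/- rep1 and 3233 in Shh-/- rep2. As shares of the lists these were 30.2%, 31.4% and 17.5%, and WT rep2 did not call it. Both Shh-/- lists thus held this region, and 1 of 2 WT lists did.

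The WT-specific regions of Bmp7 lay further into the gene. The one in the second intron, at chr2:172910771-172912108 and 28.4 kb from the start site, ranked 15456 in WT rep1 and 6604 in WT rep2. The peaks of the 2 WT lists overlapped there by 75 bp, and the region divided when an overlap of 100 bp was required. The one in the third intron, at chr2:172888485-172889129 and 51.5 kb from the start site, ranked 34390 of 39080 and 10445 of 11973. It stood at 88.0% and 87.2% of the WT lists, among their weaker peaks, while Shh-/- rep2 had its nearest peak 6.68 kb away and Shh-/- rep1 had its nearest 44.6 kb away. Of the 10 genes, Bmp7 and Id1 had a WT-specific region in the window, as did 12.9% of the 17868 protein-coding genes with any region in the window. Windows of 300 bp at the summit of the strongest peak (GRCm38.p6, plus strand) are given for the intronic region shared with Shh-/- (chr2:172933829-172934128) and for the WT-specific region of the third intron (chr2:172888664-172888963), so that their composition can be compared. Their GC contents were 49.3% and 56.0%.
Bmp7 6.3 kb: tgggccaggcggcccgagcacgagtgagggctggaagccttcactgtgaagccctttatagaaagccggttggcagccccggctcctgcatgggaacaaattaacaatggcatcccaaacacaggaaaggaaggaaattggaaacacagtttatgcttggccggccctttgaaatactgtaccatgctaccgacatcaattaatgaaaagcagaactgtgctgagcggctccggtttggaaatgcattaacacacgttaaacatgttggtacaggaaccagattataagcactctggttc
Bmp7 51.5 kb: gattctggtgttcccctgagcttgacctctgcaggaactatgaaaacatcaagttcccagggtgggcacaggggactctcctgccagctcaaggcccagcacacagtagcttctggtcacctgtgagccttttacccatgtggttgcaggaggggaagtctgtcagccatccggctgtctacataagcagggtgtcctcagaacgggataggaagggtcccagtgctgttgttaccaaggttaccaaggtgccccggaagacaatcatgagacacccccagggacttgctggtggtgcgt

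**Figure D3:**
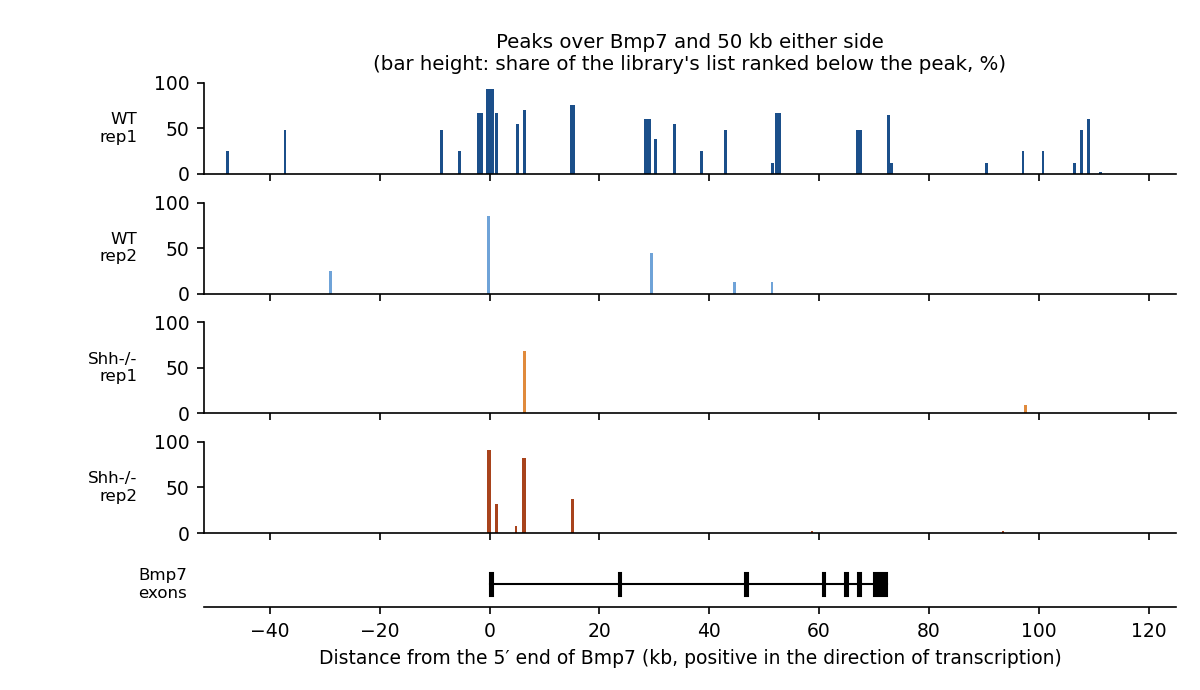
Peaks over Bmp7 by distance from its 5′ end (horizontal axis, kb, positive in the direction of transcription) in 4 libraries. Bar height is the share of the library's own list that ranked below the peak (%), narrow peaks and exons are drawn wider than they are, and black boxes mark exons. Peaks 6.34 kb into the gene are seen in WT rep1 and both Shh-/- libraries, while those at 28.4 and 51.5 kb are seen in the WT libraries alone.

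Of the receptors, Bmpr1a (chr14:34410734-34503341) encodes a broadly expressed type I receptor. Its promoter region at chr14:34501994-34503308 ranked 4473 in WT rep1, 7248 in WT rep2 and 2536 in Shh-/- rep2. An upstream region at −45.4 kb from the start site, chr14:34548503-34549779, was called in all 4 libraries. It ranked 9390 in WT rep1, 3419 in Shh-/- rep1 and 4229 in Shh-/- rep2. WT rep2 held a pair of peaks in it, at ranks 4740 and 9957, the latter at 83.2% of its list. The Shh-/- rep1 peak overlapped the weaker of this pair and not the one at rank 4740. This was the one region of the window in Shh-/- rep1. No region fell inside the introns of Bmpr1a.

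Bmpr2 (chr1:59763400-59879014) encodes the type II receptor. Its promoter region at chr1:59762469-59764184 ranked 3855 in WT rep1, 6473 in WT rep2 and 2848 in Shh-/- rep2. The best ranked other region of the window, at chr1:59912481-59913931, is the promoter of the neighbouring gene Fam117b.

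Bmpr1b (chr3:141837136-142169425) encodes a type I receptor that acts in the cartilage condensations of the digits. WT rep1 held 1 peak in its 432 kb window, the promoter peak at rank 5644, and WT rep2 held none. Shh-/- rep1 held 2 peaks, both intronic, and Shh-/- rep2 held 4, namely the promoter peak at rank 5294 and 3 intronic peaks. The promoter region spanned chr3:142168712-142169596 and had a GC content of 68.3%.

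The first intronic region of Bmpr1b, 44.8 kb from the start site at chr3:142123887-142125399, ranked 755 of 5589 in Shh-/- rep1 and 1796 of 18459 in Shh-/- rep2. It was the best ranked of the 177 Shh-specific regions in both lists. Among the peaks in the 10 windows it took place 1 of 14 in Shh-/- rep1 and place 3 of 43 in Shh-/- rep2. The peaks of the 2 lists overlapped by 1015 bp. WT rep1 had its nearest peak 43.5 kb away, at the promoter, and WT rep2 had its nearest 113 kb away. A second region, 70.1 kb from the start site at chr3:142099083-142099602, ranked 902 in Shh-/- rep1 and 8477 in Shh-/- rep2. Among the 177 Shh-specific regions it took place 3 in the first list and place 48 in the other, so its standing differed between the replicates. Shh-/- rep2 alone called a further intronic region, at chr3:141923720-141923955, at rank 10681. None of the 3 overlapped an annotated promoter of another gene.

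Both Shh-specific regions lay in the first intron of Bmpr1b transcripts Bmpr1b-202 and Bmpr1b-203, which spans 91.0 kb and 187 kb in them, and upstream of the start sites of the shorter transcripts. Of the 10 genes, Bmpr1b alone had a Shh-specific region, as did 0.711% of the 17868 protein-coding genes with any region in the window, and 0.056% of these had 2 or more. These percentages describe the lists and are no test, since Bmpr1b was selected on these calls. The GC content around the summits was 34.7% and 35.3%, near the low end of all member regions (range 30.3 to 79.3%). The median was 42.0% over all Shh-specific regions and 55.7% over all regions. Soft-masked repeats made up 13.3% and 15.3% of the 2 windows, and no word of 36 bases in them occurred elsewhere in the genome or in the mitochondrial sequence. The summit windows (GRCm38.p6, plus strand, chr3:142124520-142124819 and chr3:142099145-142099444) are shown as the sequences behind the Shh-specific calls.
Bmpr1b 44.8 kb: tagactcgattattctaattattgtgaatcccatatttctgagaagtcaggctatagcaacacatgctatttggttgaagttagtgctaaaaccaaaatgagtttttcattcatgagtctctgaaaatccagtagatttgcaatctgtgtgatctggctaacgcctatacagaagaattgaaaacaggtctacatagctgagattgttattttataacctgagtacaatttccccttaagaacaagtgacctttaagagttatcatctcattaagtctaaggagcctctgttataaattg
Bmpr1b 70.1 kb: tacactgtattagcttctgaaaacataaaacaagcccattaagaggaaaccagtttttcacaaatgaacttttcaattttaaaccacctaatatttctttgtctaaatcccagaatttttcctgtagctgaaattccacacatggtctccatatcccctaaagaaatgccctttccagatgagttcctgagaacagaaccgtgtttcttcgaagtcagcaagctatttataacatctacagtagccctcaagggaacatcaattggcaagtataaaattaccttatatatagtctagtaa

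**Figure D4:**
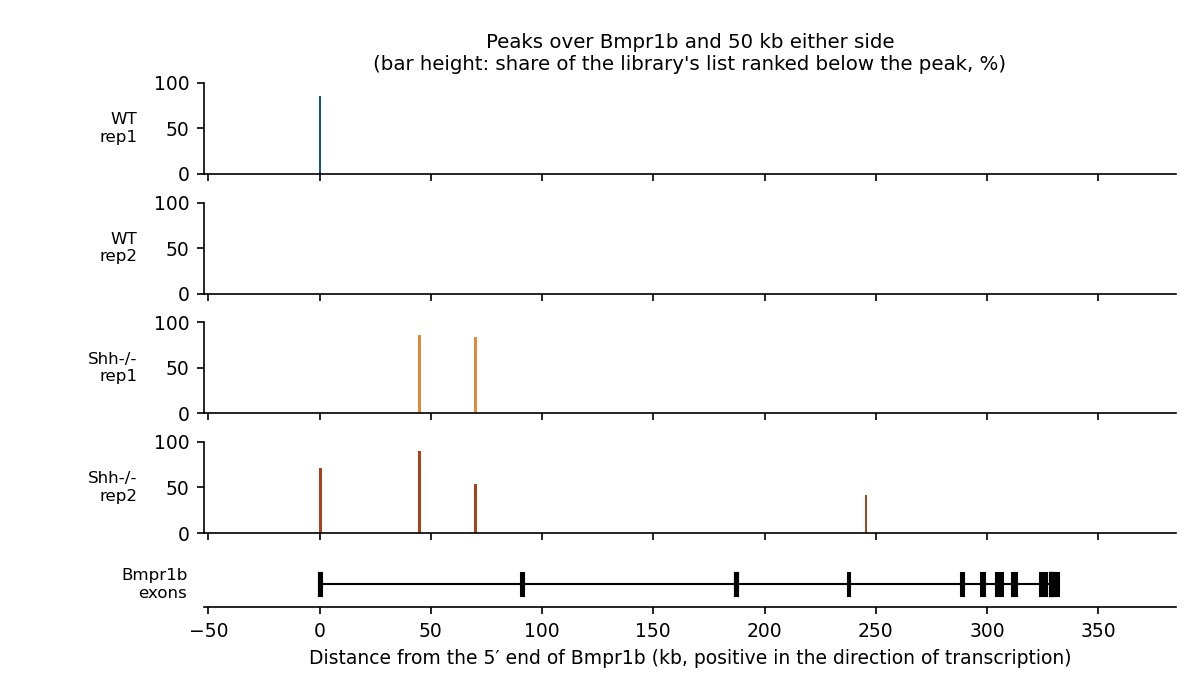
Peaks over Bmpr1b by distance from its 5′ end (horizontal axis, kb, positive in the direction of transcription) in 4 libraries. Bar height is the share of the library's own list that ranked below the peak (%), and narrow peaks and exons are drawn wider than they are. The promoter peak is seen in WT rep1 and Shh-/- rep2, and the peaks at 44.8 and 70.1 kb are seen in both Shh-/- libraries and in no WT library.

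Of the Smad effectors, Smad1 (chr8:79338395-79399518) had a promoter region at chr8:79399183-79399788, with rank 12114 in WT rep1 and 8670 in Shh-/- rep2. At 31.0% and 47.0% of these lists, it stood lowest of the 10 promoters in WT rep1. The other region in its window was the promoter of the neighbouring gene Mmaa, at chr8:79294410-79295418. Smad5 (chr13:56703010-56742377) had a promoter region at chr13:56702628-56703663, which ranked 6696 in WT rep1, 4722 in WT rep2 and 4217 in Shh-/- rep2. The other 7 regions of Smad5 were called in WT rep1 alone, the best ranked at chr13:56781844-56782324 with rank 16698. Neither Smad gene had a region in Shh-/- rep1.

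The targets Id1 and Id3 encode inhibitors of basic helix-loop-helix factors. Their promoters were called in all 4 libraries, while most of their other regions were not. Id1 (chr2:152736251-152737410) held 4 of the 6 regions called in all 4 libraries. Its promoter region over the start site, at chr2:152736052-152736880, ranked 3324 and 7673 in the WT lists and 2756 and 4344 in the Shh-/- lists. A region 3.20 kb downstream of the start site, at chr2:152738263-152739913, ranked 6476 and 10426 in WT and 1448 and 3605 in Shh-/-. A pair of regions lay upstream, at chr2:152705739-152706581 (−30.0 kb from the start site) and chr2:152707599-152708267 (−28.3 kb from it). The first ranked 5886 and 6584 in WT and 2457 and 2863 in Shh-/-, and the second ranked 8532 and 11598 in WT and 4573 and 6367 in Shh-/-. The rank numbers at these distal regions were lower in both Shh-/- lists than in both WT lists, but the lists have unequal lengths. As shares of the list the region 3.20 kb downstream stood at 16.6% and 87.1% in WT and at 25.9% and 19.5% in Shh-/-, so the genotypes overlapped on this scale.

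A second promoter region of Id1, at −1.11 kb and chr2:152734655-152735715, ranked 8533 in WT rep1, 898 in Shh-/- rep1 and 2448 in Shh-/- rep2. It was the best Id1 peak of both Shh-/- lists and was not called in WT rep2. The WT-specific region of this window, at chr2:152696622-152696994 and −39.3 kb from the start site, ranked 34302 and 10425, at 87.8% and 87.1% of the lists. It overlapped the promoter of the noncoding gene Gm26841. With each list limited to its 5589 highest peaks, the lists held 8 and 7 peaks in the windows in WT and 14 and 17 in Shh-/-. Of 24 regions then left at the 10 genes, 5 were Shh-specific (against 3.3% of 9283 regions), 1 was WT-specific (against 3.73%) and 0 were called in all 4 (against 28.6%). The 5 were the intronic regions of Bmpr1b at 44.8 kb and of Bmp7 at 6.34 kb and the regions of Id1 at −30.0, −1.11 and 3.20 kb from its start site. All but the one in Bmpr1b were called in WT rep1 further down its list. WT rep2 also called the Id1 regions at −30.0 and 3.20 kb further down, at ranks 6584 and 10426. The 1 WT-specific region was the promoter of Mcts2, −49.3 kb from Id1, which Shh-/- rep2 called further down, at rank 7334. The Bmpr1b region at 70.1 kb was left in Shh-/- rep1 alone, as its rank in Shh-/- rep2 was 8477. Shh-specific and WT-specific here thus refer to the cut lists alone. The summit window of the region at −30.0 kb from Id1 (GRCm38.p6, chr2:152706058-152706357, plus strand) is shown because it was called in all 4 libraries and holds the letters GGCGCC in 2 places, in capitals.
Id1 -30.0 kb: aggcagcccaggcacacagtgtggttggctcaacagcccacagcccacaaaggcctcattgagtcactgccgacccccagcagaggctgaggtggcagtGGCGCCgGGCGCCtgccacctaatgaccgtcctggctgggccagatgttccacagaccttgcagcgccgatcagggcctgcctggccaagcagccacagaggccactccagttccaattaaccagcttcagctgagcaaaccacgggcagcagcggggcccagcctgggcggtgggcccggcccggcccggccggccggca

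Id3 (chr4:136143497-136145755) had a promoter region at chr4:136143196-136145202 in all 4 libraries, with rank 4211 in WT rep1, 5826 in WT rep2, 1774 in Shh-/- rep1 and 2073 in Shh-/- rep2. It stood at 10.8% and 48.7% of the WT lists and at 31.7% and 11.2% of the Shh-/- lists, so the genotypes overlapped. A region at −2.96 kb, chr4:136140303-136140854, ranked 6885 in WT rep1, 2803 in Shh-/- rep1 and 7400 in Shh-/- rep2. WT rep2 called the promoter of Id3 and nothing else in its window. WT rep1 and Shh-/- rep2 shared 6 regions of Id3 that the other lists lacked, on both sides of the gene.

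**Figure D5:**
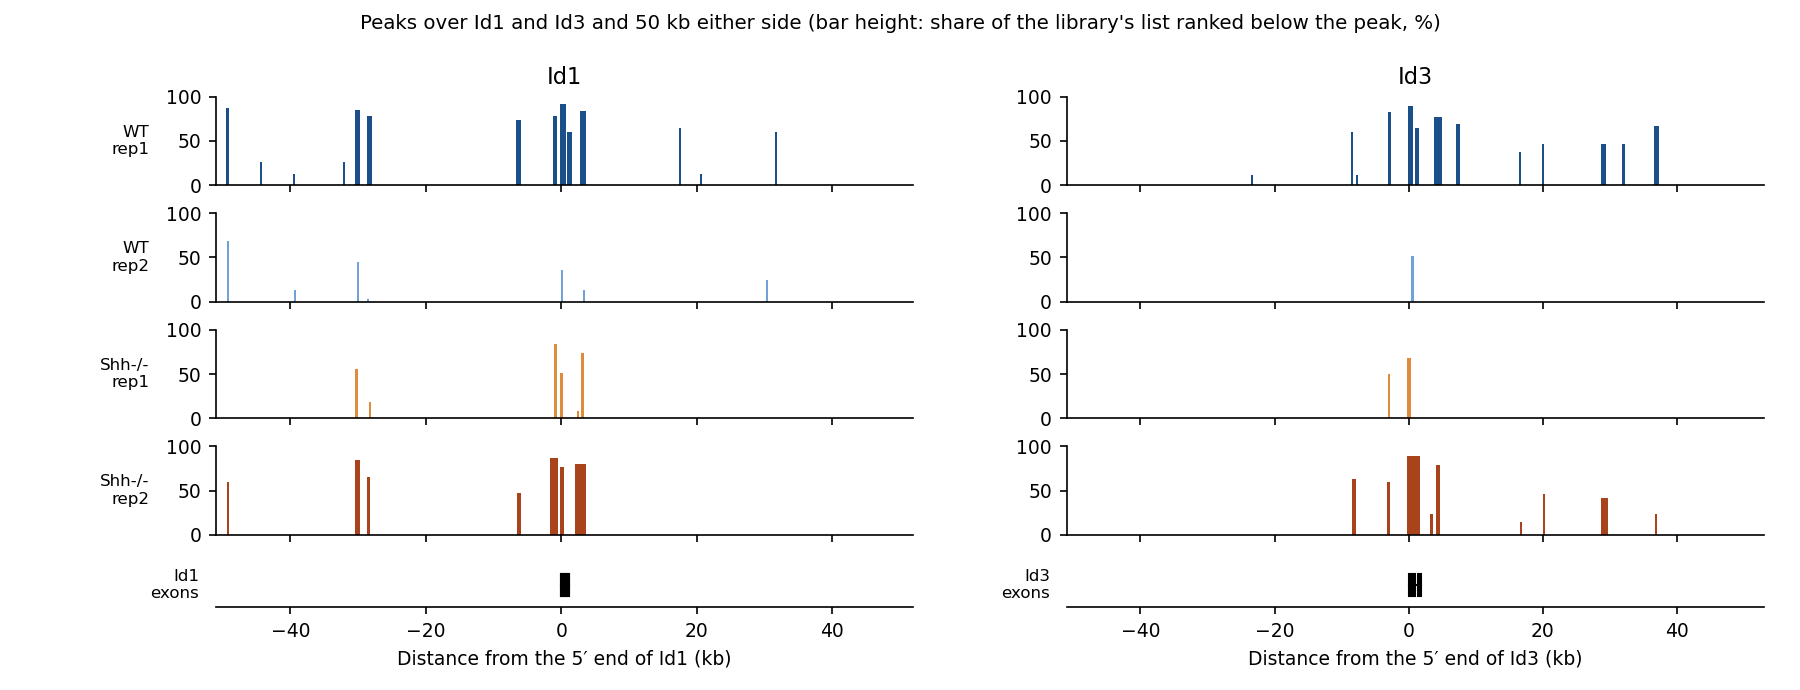
Peaks over Id1 (left) and Id3 (right) by distance from the 5′ end (horizontal axis, kb) in 4 libraries. Bar height is the share of the library's own list that ranked below the peak (%), and narrow peaks and exons are drawn wider than they are. Peaks at the start site, at 3.20 kb and near −30.0 and −28.3 kb are seen in all 4 libraries at Id1, and at Id3 the start site alone is called in all 4.

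Sequence motifs of the pathway were searched in 300 bp around the summits, on both strands. GGCGCC, a core bound by SMAD1 and SMAD5, was found in 16 of the 90 regions (17.8%), against 11.3% of all regions and 21.8% of all regions called in every library. It was found in 6 of the 13 promoter regions, whose median GC content was 68.3% against 55.7% over all regions. The share over all promoter regions was not computed, and the part of GC content in the matches was not tested. In RefSeq promoters (250 bp before to 50 bp after the start site, GRCm38.p6), 11 entries matched 7 of the 10 genes. GGCGCC was found in 4 of the 11 entries, belonging to Bmpr1a, Bmpr2 and Smad5, against 11.9% of all entries. The set of RefSeq promoters used here held no entry for Bmp2, Bmp7 and Id1. The SMAD palindrome GTCTAGAC and the GLI motif TGGGTGGTC were found in 0 of the 90 regions, against 0.318% and 0.483% of all regions. None of the 3 motifs contains another, and a match is a string of letters and not a measured site.

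A list of 24 other BMP pathway genes was read in the same way. Promoters were called for 20 of 24 in WT rep1 (against 60.4% of protein-coding genes), 12 in WT rep2 (39.2%), 6 in Shh-/- rep1 (17.3%) and 20 in Shh-/- rep2 (51.3%). The promoters of Bmp3, Bmp5 and Gdf5, which encode ligands, were called in no library. Of the 24, 5 were called in all 4 libraries (against 16.1% of protein-coding genes). These were the promoters of Acvr2b, Smad4, Smad6, Smad7 and Id2, named here after their values were seen. They encode a type II receptor, the common partner of the receptor-activated Smads, a pair of inhibitory Smads and a further Id protein. A further 6 of the 24 promoters were called in the 3 libraries other than Shh-/- rep1, against 21.1% of protein-coding genes. In the gene or 50 kb either side, 22 of the 24 had a region, and none had a WT-specific or a Shh-specific one, against 12.9% and 0.711% of protein-coding genes with a region.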

How the data were processed

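ATAC-seq libraries of 2 WT and 2 Shh-/- posterior forelimb buds were prepared from 5000 cells each with 18 cycles of PCR and sequenced as paired ends. Per the submitters' processing notes the authors used Bowtie2 2.2.5 and MACS2 2.1.0 with mm10, and per the study's methods peaks were called at a q-value cutoff of 0.05 with a window of 200 bp. Read filters and any shift of reads to the Tn5 cut are not given in the sources used here. Each library has its own deposited list of peaks, and replicates were not pooled. The score that the authors deposited with each peak follows the peak caller's format of 10 times the −log10 of the q-value. That scale is not stated with the deposited lists. The score was used for ranks within a list and, as an alternative, for a cutoff of at least 50 in every list. Ties were ordered by position. The other signal columns held 0.

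Peaks sharing 1 bp or more were merged, and annotation was by GENCODE M21 (basic set), with distances measured from the 5′ end of the gene to the summit of the best ranked peak. Promoters ran from 2 kb before to 1 kb after a start site. GC content, repeats and motifs came from 300 bp around that summit in GRCm38.p6, the assembly of mm10. Groups were taken from the titles. The members and lists were chosen with earlier results of these data known, so the exact permutation tests planned for peak number and list share are not reported. With 2 libraries against 2 such an exact permutation test cannot go below p = 0.333. All 10 members are named, with their promoter peak and the best ranked other region, every region specific to a genotype and every peak of Bmpr1b in Shh-/-. Of the pathway list, genes with no promoter call or a genotype-specific region are named, and of neighbours, those whose promoter was a region in a window. Merging and counts were tested on simulated lists. Alternatives were lists of equal size, a score of at least 50, each library left out, the gene body alone or 100 kb either side, merging at 100 bp, promoters of 1 kb either side, summits, and the replicate block. Python 3.11.15, pandas 2.3.3, numpy 2.4.6, pysam 0.24.0 and samtools 1.23.1 were used.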

Additional observations from a re-analysis of the deposited data

How the results depend on the processing

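The WT minus Shh-/- difference in the share of the list ran from −0.143 percentage points at equal list size to −0.0299 in gene bodies alone, a direction that the choice of members with their calls known can fix. The difference in peak number was −8 at equal list size against 22 with all peaks, and ran from −5.5 to 49.5 when a library was left out. The count of Shh-specific regions was 5 within lists cut to equal size and 2 to 10 with a library left out. WT-specific regions numbered 1 at equal list size, 0 at a score of at least 50 and 3 to 43 with a library left out. Regions called in all 4 libraries numbered 0 at equal list size, 1 at a score of at least 50, 2 in gene bodies alone and 6 to 16 with a library left out, and promoters called in all 4 numbered 0 at equal list size, 0 at a score of at least 50 and 2 to 8. At a score of at least 50 the count of 2 Shh-specific regions did not move. With the replicate number as a block (replicate block), the mean differences were the same 22 peaks and −0.0459 percentage points. The deviations of same-numbered libraries over regions had a correlation of 0.245, but the labels tie the numbers to no shared litter or day, so the samples share only a number. What was lost at equal list size was lost to the shorter lists by construction, and the cause of the other changes was not tested. Scores cannot be compared between lists, so a score of at least 50 need not mean the same in each list. Each library is 1 embryo.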

Other observations

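The windows also held 9 regions at promoters of neighbouring protein-coding genes. In Shh-/- rep1 0 of the 9 were called, against 5445 of all 44692 regions, and the share over promoter regions alone was not computed. The promoter of Mmaa, a gene of mitochondrial cobalamin metabolism near Smad1, ranked 1175 in WT rep1, 701 in WT rep2 and 779 in Shh-/- rep2, ahead of the promoters of all 10 members in these lists. Fam117b, near Bmpr2, ranked 1607, 1156 and 3811 in the same lists. Mcts2, near Id1, ranked 4918, 3788 and 7334. The promoter of E2f2, a cell cycle factor near Id3, was called in WT rep1 (rank 20681) and Shh-/- rep2 (rank 10717). The regions at Cox4i2, at Mmrn2 and Sncg, and at Gm45623 were called in WT rep1 alone, and the region at Gm15217, near Bmp4, in Shh-/- rep2 alone.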
